A study of Mus musculus with 6 samples.

Results

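A set of 8 genes, here called the members, was followed by symbol through single-cell RNA sequencing of mouse hematopoietic stem and progenitor cells (HSPCs): Dscam, Glis3, Myl4, Atp8b4, Apba1, Exoc3l2, Drc7 and Serpina3f. All 8 were found among the 32285 genes of the files. They had been chosen by their higher UMI levels in AML than in PBS libraries of these same data and because their best known roles lie outside blood lineages. The AML against PBS values are therefore given as a description that supports nothing. Differences between HSPC classes and between cell cycle phases inside the PBS libraries were not the contrast of the choice and are tested. Class and phase shares differed between the groups, however, so the choice may favor genes that vary by class or phase. The class and phase tests are thus not fully independent of the choice, and the size of that link was not tested.

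Recipients in both groups were non-conditioned C57BL/6J (CD45.1) mice that received an intravenous injection of either C1498 cells or PBS vehicle. C1498 is a single mouse acute myeloid leukemia (AML) cell line that carries CD45.2, so one line stands for the disease and donor and host differ in a surface allele. At day 21, host (CD45.1) Lin- cKit+ Sca1+ (LSK) cells were sorted from bone marrow and sequenced on the 10x Chromium platform. There were 3 libraries from PBS and 3 from C1498-engrafted mice (hereafter AML). AML cells, AML HSCs and the like thus mean cells sorted as host cells from AML libraries, not the injected C1498 cells. Age, and whether a library held 1 mouse or several, are stated in no source used here, so the spread between libraries may be technical in part. The authors' table of cells kept 16822 cells, 12170 of them from 3 PBS libraries and 4652 from 2 AML libraries, and gave each cell a class (HSC, MPP-2, MPP-3 or MPP-4, the multipotent progenitor stages that follow the hematopoietic stem cell), a cell cycle phase and 1 of 9 clusters.

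Background on these genes comes from other tissues. Dscam is an immunoglobulin superfamily receptor that mediates adhesion and self-recognition between neurites. Glis3 is a Krüppel-like zinc finger transcription factor. Myl4 is the essential myosin light chain of atrial and embryonic muscle. Atp8b4 belongs to the P4-ATPases, most of which flip phospholipids between the leaflets of a membrane. Apba1 (Mint1, also X11alpha) is an adaptor that binds the amyloid precursor protein and Munc18. Exoc3l2 is related to the Sec6 subunit of the exocyst, the complex that tethers secretory vesicles to the plasma membrane. Drc7 is a subunit of the nexin-dynein regulatory complex of the ciliary axoneme. Serpina3f is 1 of the closely related clade A serine protease inhibitors that form an expanded cluster in the mouse.

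The libraries differed widely in depth. Kept cells numbered 6838, 934 and 4398 in PBS replicates 1, 2 and 3 and 693 and 3959 in AML replicates 1 and 3, with 1945659 to 32123508 unique molecular identifiers (UMIs, 1 per captured transcript) in all. Median UMIs per cell ran from 2393 in AML replicate 1 to 9586 in PBS replicate 2. AML replicate 2 has no cell in the table. Its 17055 barcodes had a median of 320 UMIs, and its values are given apart. Any 2 libraries shared 12 kept barcodes or fewer. The sort label was checked with 10 LSK markers, which summed to 1098 to 1274 counts per 1000000 UMIs (CPM) in AML and 1148 to 1328 CPM in PBS libraries, with a UMI of each marker in every library. The 10 granulocyte-monocyte priming genes, Mpo and Elane among them, summed to 2109 and 2206 CPM in AML against 802 to 1416 CPM in PBS libraries. T and NK cell genes were also higher without overlap (182 to 185 against 150 to 175 CPM) and monocyte and macrophage genes lower (67.3 to 86.1 against 89.7 to 151 CPM), while the other 5 lists overlapped. The share of cells in the authors' cluster 4, where the granulocyte-monocyte priming genes were highest, was 11.1% and 9.57% in AML against 2.46% to 3.41% in PBS libraries. Their part in the levels described next was not tested except where a value is given.

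The genes differ greatly in length. On GRCm38 Dscam spans chr16:96590840-97170752 (minus strand), 579913 bases of which 1.52% are exonic. Glis3 lies at chr19:28258851-28680077 (minus), with 2.10% exonic sequence, and Apba1 at chr19:23758887-23949596 (plus), with 3.61%. Atp8b4 at chr2:126320973-126500674 (minus) is 3.71% exonic. Myl4 at chr11:104550663-104595753 (plus), Exoc3l2 at chr7:19463331-19496762 (plus) and Drc7 at chr8:95055103-95078141 (plus) are 10.3%, 12.0% and 12.97% exonic. Serpina3f at chr12:104214544-104221129 (plus) is the shortest, with 6586 bases, against a median span of 17318 bases over protein-coding genes. Whether intronic reads were counted was not given in the sources used here, and with spans this unequal that setting bears on levels between genes, so UMI totals and shares of cells show how much data lies behind a member and do not order the genes by expression. Dscam overlaps a gene on the other strand, AC154538.1, that had 45 UMIs beside its own 436, and no other overlapping gene counted in the files passed 11 UMIs.

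The stretch upstream of each start was read for 4 short motifs, because the members were higher in libraries with more granulocyte-monocyte priming and the study asked about inflammation. In the 250 bases before the RefSeq start (GRCm38.p6), both strands were searched for TTCNNNGAA (the GAS type bound by cytokine-activated factors), GAAANNGAA (the interferon-stimulated ISRE type), GAGGAA (the PU.1 type) and AGATAA (the GATA type). Over all 32851 promoter windows these letters occurred in 7.02%, 7.13%, 23.3% and 9.99%. A match was found in 4 members. The share of all windows with a match to any of the 4 motifs was not computed, and the PU.1 type alone occurred in 23.3%. Nothing is therefore read from the count of members. Their windows are shown here 5′ to 3′ on the strand of the gene with the matched bases in capitals.
Serpina3f, chr12:104214294-104214543 (plus), GAS type and, overlapping it on the opposite strand, ISRE type: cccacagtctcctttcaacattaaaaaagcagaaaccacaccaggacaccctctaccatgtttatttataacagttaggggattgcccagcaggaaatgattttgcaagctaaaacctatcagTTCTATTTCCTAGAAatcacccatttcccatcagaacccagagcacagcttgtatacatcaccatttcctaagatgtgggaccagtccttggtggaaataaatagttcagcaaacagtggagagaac
Atp8b4, chr2:126491554-126491803 (minus), PU.1 type at 2 places: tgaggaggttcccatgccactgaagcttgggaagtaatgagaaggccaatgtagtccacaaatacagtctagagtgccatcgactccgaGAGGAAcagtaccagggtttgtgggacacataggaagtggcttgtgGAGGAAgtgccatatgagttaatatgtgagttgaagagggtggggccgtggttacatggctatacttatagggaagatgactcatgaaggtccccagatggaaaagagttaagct
Drc7, chr8:95054853-95055102 (plus), PU.1 type, then GAS type: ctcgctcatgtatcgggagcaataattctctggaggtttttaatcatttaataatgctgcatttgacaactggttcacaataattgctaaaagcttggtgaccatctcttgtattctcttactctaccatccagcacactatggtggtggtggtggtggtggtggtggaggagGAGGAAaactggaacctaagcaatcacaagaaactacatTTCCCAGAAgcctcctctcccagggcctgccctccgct
Exoc3l2, chr7:19463037-19463286 (plus), GATA type: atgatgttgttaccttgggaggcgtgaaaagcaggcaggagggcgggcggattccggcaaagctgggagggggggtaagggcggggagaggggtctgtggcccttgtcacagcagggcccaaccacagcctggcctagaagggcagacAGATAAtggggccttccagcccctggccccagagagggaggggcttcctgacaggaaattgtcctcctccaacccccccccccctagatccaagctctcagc

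Serpina3f has 2 RefSeq starts, and the GAS type match began 121 bases before the first, whose window is printed, and 210 bases before the second. Atp8b4 carried its matches 161 and 115 bases before a RefSeq start that lies inside the annotated gene span. Those of Drc7 began 77 and 38 bases before the start and that of Exoc3l2 102 bases before it. These letters did not occur in the windows of Dscam, Glis3, Myl4 and Apba1, which had a GC content of 68.0%, 75.6%, 63.6% and 81.6% against a median of 52.4% over all windows. A match is a run of letters and not a site shown to be bound.

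Summed over all kept cells of a library and scaled by TMM, the members were low to moderate in level, from 294 UMIs of Serpina3f to 3524 of Atp8b4 and 10017 in all. Dscam stood at 1.64, 1.57 and 2.19 CPM in PBS replicates 1 to 3 and at 6.52 and 10.8 CPM in AML replicates 1 and 3. Glis3 was the most even among controls, with 3.20, 3.35 and 3.29 CPM in PBS and 8.03 and 10.5 CPM in AML libraries. The groups did not overlap for either gene.

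Myl4 measured 7.48, 8.86 and 10.9 CPM in PBS and 35.1 and 19.7 CPM in AML libraries. For Atp8b4, the most abundant member by UMIs, the PBS libraries held 26.1, 17.2 and 29.6 CPM and the AML libraries 71.7 and 60.1 CPM. Apba1 rested on 17 to 99 UMIs per PBS library and came to 2.90, 1.67 and 3.72 CPM, with 13.04 and 10.7 CPM in AML libraries. In these 3 genes as well every AML library lay above every PBS library.

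Drc7 stood at 10.6, 5.81 and 9.78 CPM in PBS and 18.1 and 21.2 CPM in AML libraries. Serpina3f, the member with the fewest UMIs (9 in AML replicate 1), was at 1.29, 1.97 and 1.05 CPM in PBS and 4.52 and 7.06 CPM in AML libraries. Exoc3l2 was the exception, with 12.6, 27.9 and 28.4 CPM in PBS and 118 and 25.3 CPM in AML libraries, so that AML replicate 3 lay inside the PBS range and AML replicate 1 alone stood apart. Thus 7 of 8 members did not overlap between groups, where 14.6% of the 14364 genes tested lay above in the same way, and the contrast is the one that chose the members.

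**Figure D1:**
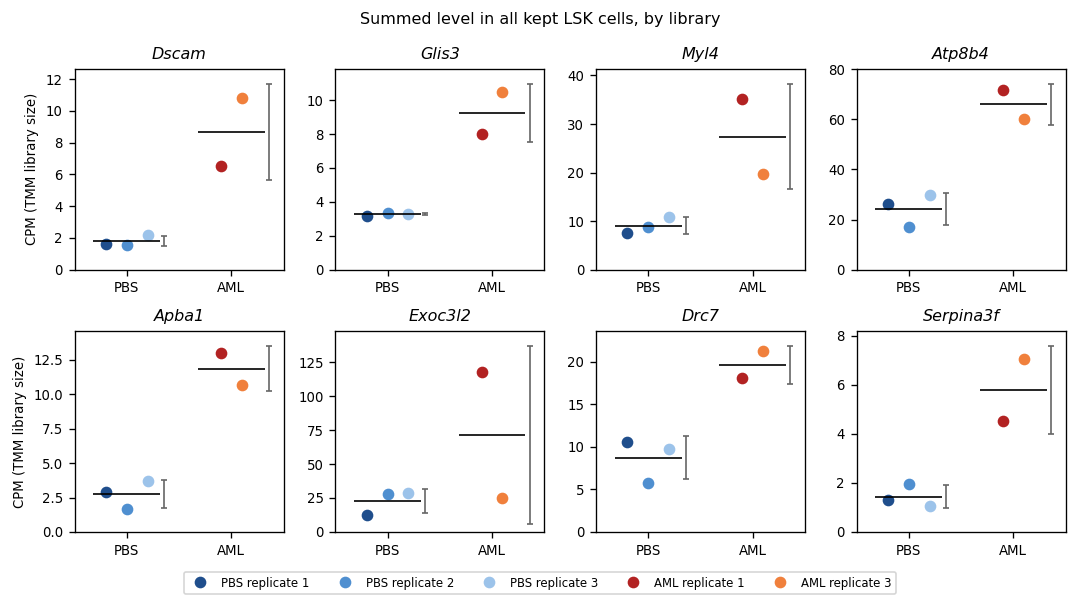
Level of each member in CPM (TMM-scaled, linear axis from 0) summed over all kept LSK cells, 1 point per library, with the group mean and SD. In 7 of 8 panels the AML points lie above all PBS points, and in Exoc3l2 AML replicate 3 at 25.3 CPM lies inside the PBS range.

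In the fit across all genes (edgeR quasi-likelihood test, Benjamini-Hochberg adjustment) the log2 fold changes of AML over PBS ran from 1.19 (SE 0.26) for Drc7 to 2.38 (SE 0.31) for Dscam, with a median of 1.59 over members and -0.03 over all genes. In all, 6 of 8 members were among the genes called higher at an adjusted p under 0.05, which were 0.153% of those tested. Drc7 (adjusted p = 0.113) and Exoc3l2 (log2 fold change 1.61, SE 0.49, adjusted p = 0.27) were outside it. The Exoc3l2 change rested on AML replicate 1, without which it was 0.17 (SE 0.36), and it was 2.42 without AML replicate 3. Just inside the threshold were Myl4 at 0.045 and Atp8b4 at 0.031. The calls were lost in part when cells were weighted to an equal class composition, which left 1 member called, Atp8b4 at 0.95 and Apba1 at 1.24 on the log2 scale. This weighting also gives more weight to the 23 HSCs of AML replicate 1, and the part of that small sum was not tested. HSCs made up 3.32% and 13.7% of AML cells against 20.5% to 23.9% of PBS cells, and MPP-3 cells 32.9% and 22.3% against 4.39% to 11.6%. Without PBS replicate 1, 2 or 3 the number called was 0, 1 and 2. The number of all genes called also changed with the library left out, so nothing is read from these counts. No member changed direction in these fits.

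Fractions of expressing cells were compared after each cell was thinned to 2000 UMIs, since the unthinned share follows depth. At equal depth Dscam was detected in 0.358%, 0.428% and 0.394% of PBS cells by replicate and in 1.15% and 2.17% of AML cells. Atp8b4 was found in 5.03%, 2.68% and 4.68% of PBS and 12.8% and 10.3% of AML cells. Serpina3f went from 0.162% to 0.428% in PBS to 1.01% and 1.72% in AML libraries. Even Atp8b4, with the largest share, was thus absent from the thinned counts of most cells.

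For Glis3 the thinned shares were 0.579% to 0.857% in PBS and 1.15% and 2.15% in AML cells. Myl4 was seen in 1.39% to 1.78% against 6.78% and 3.03%, and Apba1 in 0.107% to 0.566% against 2.16% and 1.54%. Drc7 gave 1.18% to 2.16% against 3.75% and 3.99%. Exoc3l2 gave 2.16%, 2.36% and 2.73% in PBS against 9.09% and 3.26% in AML cells, so by share its groups did not overlap. All 8 members lay above the PBS range by thinned share (16.6% of genes did so), and 5 of 8 by the unthinned share (1.44% of genes). A cell with at least 1 UMI of any member made up 32.2% and 24.4% of thinned AML cells and 12.2%, 9.21% and 11.8% of thinned PBS cells. Cells with 3 or more members were 0.433% and 0.328% in AML and at most 0.0463% in PBS libraries.

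Free RNA in droplets gives every cell type a low share. The erythroid cluster 7 (102 cells, median 6380 UMIs against 4574.5 in all cells), whose erythroid genes summed to 13054 CPM, served as background. It held 0 cells with Dscam, Glis3, Myl4, Apba1 or Serpina3f, which allows up to 2.94% for each, and 1 cell with Atp8b4 and 1 with Drc7. In all kept cells Atp8b4 was seen in 15.0%, Drc7 in 6.17% and Myl4 in 6.02%. Exoc3l2 was detected in 4.90% of these erythroid cells, in 5.56% of all cells and in 2.82% of the cells of cluster 6, whose median was 8667 UMIs. The cluster 7 share rests on 5 cells and lies close to that of all cells, so the share by itself is not read as expression. The unthinned shares of Dscam (1.83%), Glis3 (2.43%), Apba1 (2.47%) and Serpina3f (1.48%) lie under the limit that this cluster allows.

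Exoc3l2 was unlike the others in how its UMIs were spread. In all, 130 cells with 5 or more UMIs held 52.2% of its UMIs, against 1.92% to 11.2% in the other 7 members, and a single cell held up to 30. They were 13.9% of the cells with a UMI, against 0.402% to 2.27%. The Exoc3l2 cells were 2.74% and 1.29% of the cells of AML replicates 1 and 3 and 0.117%, 1.39% and 0.887% of PBS replicates 1 to 3. Without them Exoc3l2 measured 43.2 and 11.6 CPM in AML and 12.0, 6.94 and 10.2 CPM in PBS libraries, and its fitted AML change was 1.26 on the log2 scale. AML replicate 1 thus remained apart, while AML replicate 3 again lay inside the PBS range.

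Classes were next compared inside the PBS libraries, with CPM of the plain class total and library as a block in the fit. Atp8b4 rose in all 3 MPP classes, with the largest estimate in MPP-3. In HSCs it was at 4.02, 3.42 and 9.58 CPM in PBS replicates 1 to 3, in MPP-2 at 19.7, 10.7 and 22.5 CPM, in MPP-3 at 49.2, 46.0 and 53.1 CPM and in MPP-4 at 38.5, 24.8 and 33.1 CPM. The MPP-3 libraries overlapped with no other class. Over HSCs it rose by 1.93 (SE 0.23, adjusted p = 2.12e-07), 3.39 (SE 0.23, adjusted p = 5.25e-11) and 2.61 (SE 0.21, adjusted p = 1.14e-09) on the log2 scale, in the order MPP-2, MPP-3, MPP-4. In G1 cells alone the MPP-2 change was 0.21 and was not called.

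Drc7 rose from HSCs as well but peaked in another class. It held 2.21, 0.570 and 1.69 CPM in HSCs, 4.62 to 6.49 CPM in MPP-2, 7.63 to 10.2 CPM in MPP-3 and 21.3, 8.36 and 17.2 CPM in MPP-4. Its changes over HSCs were 1.98 (SE 0.34, adjusted p = 2.97e-05), 2.51 (SE 0.38, adjusted p = 1.32e-05) and 3.36 (SE 0.28, adjusted p = 1.63e-09). In G1 cells alone the MPP-2 change of Drc7 turned to -0.74 and was not called. MPP-3 and MPP-4 overlapped through PBS replicate 2, and the difference between them was not tested. Myl4 rose by 0.96 (SE 0.26, adjusted p = 0.0038), 1.48 (SE 0.31, adjusted p = 0.00057) and 1.00 (SE 0.26, adjusted p = 0.0055), from 3.42 to 6.43 CPM in HSCs to 7.38 to 17.1 CPM over the 3 MPP classes, which overlapped one another. Without PBS replicate 3 all 3 of these calls were lost, at 0.65 (adjusted p = 0.11), 0.85 (adjusted p = 0.14) and 0.87 (adjusted p = 0.066), and in G1 cells the MPP-4 change was 0.67 (adjusted p = 0.19).

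The other members moved in 1 class each or in none. Glis3 was at 5.58 to 5.81 CPM in MPP-4 and at 0 to 3.01 CPM elsewhere. It rose by 1.13 in MPP-4 (SE 0.30, adjusted p = 0.0061), a call lost without PBS replicate 1 (adjusted p = 0.07) or 3 (0.11). Apba1 was at 6.89, 8.51 and 9.65 CPM in MPP-3 and at 0.507 to 3.62 CPM in the other classes, and rose by 1.84 in MPP-3 (SE 0.40, adjusted p = 0.00083), a call lost without PBS replicate 3 (1.30, adjusted p = 0.097) and in G1 cells (1.31, adjusted p = 0.21). Serpina3f fell by 1.59 in MPP-2 (SE 0.59, adjusted p = 0.028), on 16 UMIs there against 24 in HSCs over the 3 libraries, and lost the call without PBS replicate 1 (change -0.92). That call held in 9 of 13 alternatives, with changes from -2.34 to -0.59. Exoc3l2 passed the test in no class, with changes of 0.38, -0.46 and -0.05 (SE 0.19, 0.29 and 0.20). Dscam had too few UMIs to be tested, at 0 to 0.603 CPM in HSCs and 2.03 to 3.65 CPM in MPP-4.

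Of the 7 members tested, 4 were called in each class contrast, where 51.6%, 35.8% and 28.1% of the 11793 genes tested were called, in the same order. The count in MPP-2 is thus near the background, and with 7 members nothing is read from the counts in MPP-3 and MPP-4. The classes came from the authors' highest module score, and whether a member is among the scored genes was not given in the sources used here. In G1 cells 0 members were called in MPP-2 by edgeR (1 at an unadjusted p under 0.05, 348 genes called in all), with Atp8b4 at 0.21, Drc7 at -0.74 and Myl4 at -0.44, while Atp8b4 and Drc7 kept their calls in MPP-3 and MPP-4. Without clusters 4, 6, 7 and 8 the Apba1 change in MPP-3 was 0.12 (adjusted p = 0.92) and that of Myl4 0.83 (adjusted p = 0.086).

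**Figure D2:**
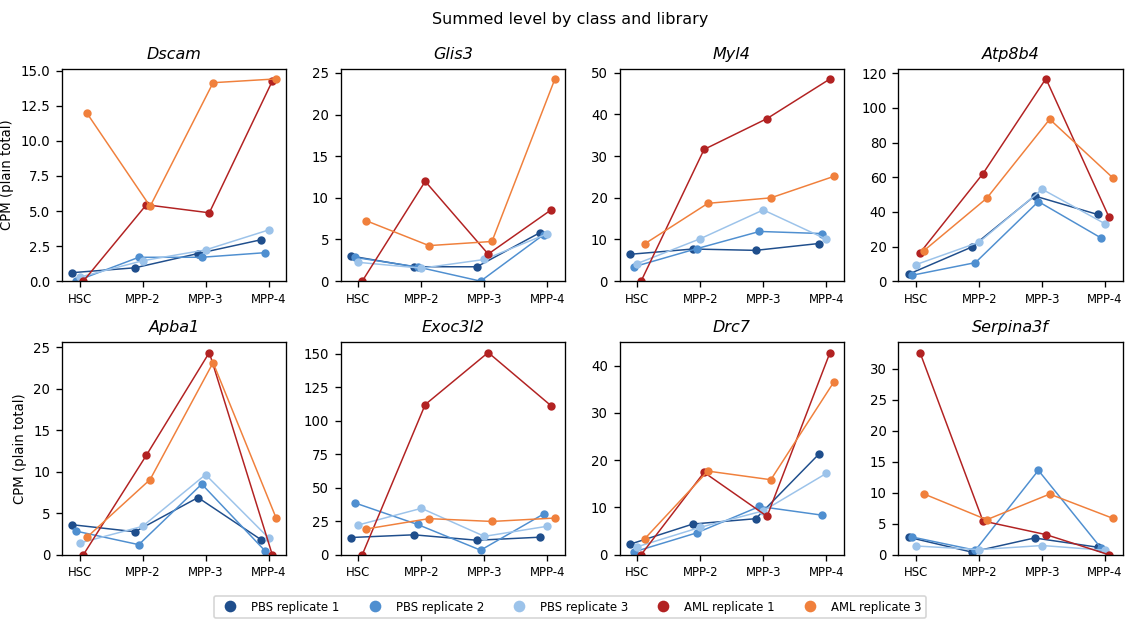
Level of each member by class in CPM of the class total, 1 point per library and class, linear axes from 0. Atp8b4 is lowest in HSCs and highest in MPP-3 in all 3 PBS libraries, and Drc7 is highest in MPP-4 in PBS replicates 1 and 3.

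The AML against PBS values by class repeat the contrast that chose the members and are listed without a reading. In MPP-2, 7 of 8 members lay above every PBS library (12.1% of genes did), in MPP-3 5 of the 7 tested (14.8%), in MPP-4 4 of 7 (12.8%) and in HSCs 2 of the 4 tested (9.59%). In edgeR 0 members were called in HSCs, where 0.178% of genes were, nor in MPP-2 (0.0399%) or MPP-3 (0.0486%). At an unadjusted p under 0.05 the counts there were 2 of 4, 8 of 8 and 5 of 7 members, against 444 of 10668, 946 of 12518 and 761 of 10294 genes. DESeq2 called 0, 1 and 0 members among 0, 9 and 9 genes. In MPP-4, Dscam (log2 fold change 2.20, adjusted p = 0.014) and Glis3 (1.81, adjusted p = 0.014) were called among 0.0325% of genes that were higher, and 0 of 7 members by DESeq2 or without PBS replicate 3. AML replicate 1 had only 23 HSCs with 61292 UMIs in all, so its HSC level of Serpina3f rests on 2 UMIs and that of Atp8b4 on 1. It had 117 MPP-4 cells, of which 2.56% held Dscam and 2.56% held Glis3, so the MPP-4 calls rest on few cells in that library.

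Within the class of highest mean in PBS libraries, Atp8b4 reached 117 and 93.5 CPM in AML MPP-3 and Drc7 42.8 and 36.5 CPM in AML MPP-4. Apba1 was at 24.4 and 23.1 CPM in AML MPP-3, and Glis3 at 8.56 and 24.3 CPM in AML MPP-4. Dscam held 14.3 and 14.4 CPM in AML MPP-4. In AML replicate 1 both genes rest on few cells there, since each was detected in 2.56% of its 117 MPP-4 cells. Myl4 was at 39.0 and 19.97 CPM in AML MPP-3 against 7.38 to 17.1 CPM in PBS MPP-3. For Serpina3f the class of highest mean was MPP-3, a rank that rests on 8 UMIs in the 41 cells of PBS replicate 2, and there the groups overlapped, at 3.25 and 9.79 CPM in AML and 2.71, 13.6 and 1.48 CPM in PBS libraries. In MPP-2, where it was lowest in PBS libraries at 0.433 to 0.830 CPM, the AML libraries held 5.45 and 5.65 CPM, and in HSCs it was at 1.41 to 2.85 CPM in PBS against 32.6 CPM (2 UMIs) and 9.82 CPM in AML libraries. Exoc3l2 had no clear highest class, with 12.9, 38.8 and 22.3 CPM in PBS HSCs and 14.9, 22.6 and 34.7 CPM in PBS MPP-2. AML HSCs held 0 and 19.2 CPM of it, the latter inside the PBS range. Its fitted change in HSCs was -0.49 (SE 0.35, adjusted p = 0.99), and ran from -8.93 without AML replicate 3 to -0.07 without PBS replicate 2 over the 7 alternatives run for that class. The lowest value rests on 0 UMIs in AML replicate 1 and depends on the prior count. Whether the AML difference itself varied between classes was not tested.

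Of the members that passed the test by cell cycle phase, Glis3 was lower in S and G2M than in G1 and Dscam was lower in G2M alone, while Apba1, Myl4 and Atp8b4 were higher in both phases. In PBS libraries Dscam was at 1.84, 1.53 and 2.66 CPM in G1, 2.53, 2.25 and 2.54 CPM in S and 0.774, 0.733 and 0.601 CPM in G2M. The fall in G2M was 1.33 on the log2 scale (SE 0.42, adjusted p = 0.0090) on 13 UMIs in G2M over the 3 libraries, and the call was lost without PBS replicate 3 (-0.98, adjusted p = 0.17). Glis3 was higher in G1, at 4.64, 5.03 and 4.47 CPM, than in S (2.32, 1.29 and 2.24) or G2M (2.65, 2.57 and 1.80). Its change was -0.97 in S (SE 0.27, adjusted p = 0.0032) and -0.80 in G2M (SE 0.26, adjusted p = 0.013). The G2M call was lost without PBS replicate 1 (adjusted p = 0.055) or 3 (0.14), by DESeq2 (0.11) and without the library block (0.058).

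Apba1, Myl4 and Atp8b4 passed the test as higher than in G1 in both S and G2M. Apba1 was at 2.21, 1.97 and 1.70 CPM in G1 and 3.98, 1.47 and 5.41 CPM in G2M, a change of 1.21 (SE 0.30, adjusted p = 0.0014) that missed the threshold without PBS replicate 3 (0.76, adjusted p = 0.14). Myl4 stood at 6.48, 8.32 and 7.78 CPM in G1 and 9.40, 7.33 and 15.2 CPM in G2M, a change of 0.81 (SE 0.18, adjusted p = 0.00040). The Atp8b4 change was small, 0.41 (SE 0.10, adjusted p = 0.00097), and missed the threshold when scaled by library size alone (0.21, adjusted p = 0.073). On the plain CPM scale PBS replicate 2 was lower in G2M than in G1 for each of these genes. In S phase the 3 genes rose by 0.85 (SE 0.31, adjusted p = 0.023), 0.44 (SE 0.19, adjusted p = 0.048) and 0.36 (SE 0.098, adjusted p = 0.0027). These calls held in 5 of 10, 6 of 12 and 7 of 12 alternatives. Without PBS replicate 1 those of Apba1 (0.81, adjusted p = 0.20) and Myl4 (0.29, adjusted p = 0.40) were lost, without PBS replicate 2 that of Myl4 (0.43, adjusted p = 0.054), and without PBS replicate 3 those of Apba1 (0.53, adjusted p = 0.31) and Atp8b4 (0.24, adjusted p = 0.12). Exoc3l2 and Drc7 passed the test in neither phase, at 0.29 (SE 0.19) and 0.19 (SE 0.17) in G2M.

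In all, 4 of 7 members were called in S, where 55.5% of the 12262 genes tested were, and 5 of 7 in G2M, where 53.2% were. The first is close to the background, and with 7 members nothing is read from either count. Both fell to 1 without the library block. With class as a further term, 1 member was called in S and 3 in G2M of those that could be tested. The shares of all genes called in these alternatives are not given here, so nothing is read from these falls either. Serpina3f had too few UMIs for the test. It was at 2.50, 3.50 and 1.49 CPM in G1, 0.632, 0.322 and 0.897 CPM in S and 0.442, 1.10 and 0.300 CPM in G2M, with G1 above S and G2M in each PBS library. The AML libraries held 14.5 and 9.85 CPM of it in G1 against 1.55 to 6.69 CPM in S and G2M. AML replicate 1 rests on few cells here, with Serpina3f in 3.92% of 102 G1 cells and 0.439% of 228 S cells.

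By phase the AML libraries lay above the PBS libraries for 7 of 8 members in G1 (14.1% of genes), 6 in S (12.8%) and 7 in G2M (15.4%), with Exoc3l2 overlapping in each and Drc7 in S. The phase makeup of the libraries differed, since 52.4% of AML replicate 1 but 24.1% of AML replicate 3 and 18.3% to 19.9% of PBS cells were in G2M. In G1 cells alone AML replicate 3 held Dscam at 17.8 CPM and AML replicate 1 at 3.62 CPM, the latter on 1 UMI.

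**Figure D3:**
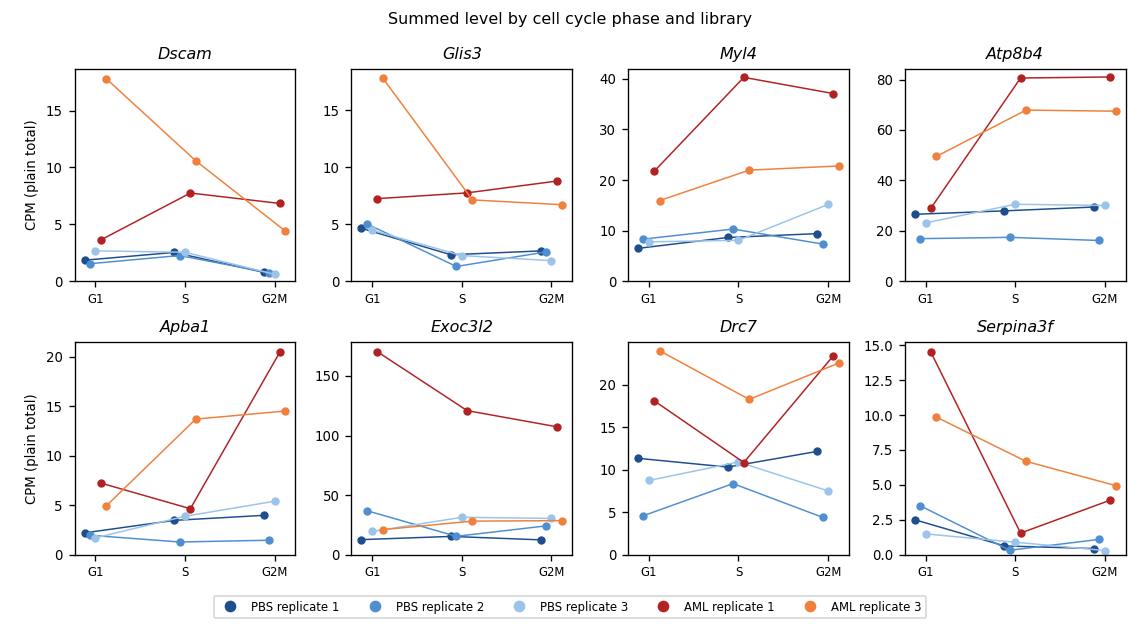
Level of each member by cell cycle phase in CPM of the phase total, 1 point per library and phase, linear axes from 0. In PBS libraries Serpina3f and Glis3 are highest in G1, and Dscam is lowest in G2M at 0.601 to 0.774 CPM.

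The genes behind the authors' clusters were not given in the sources used here and may include the members, so the levels by cluster are given without a test. Clusters are ranked inside a group, since the cluster shares differed between groups. Apba1 had its highest mean in cluster 4, at 17.8 CPM in PBS libraries against 10.5 CPM in the next, cluster 6, and at 67.6 CPM in AML libraries against 6.57 CPM in cluster 6 of AML replicate 3. In cluster 4 it was at 26.6, 5.86 and 20.9 CPM in PBS and 88.3 and 46.9 CPM in AML libraries, on 2 to 193 UMIs each. Leaving out that cluster reduced its fitted AML change to 1.05 on the log2 scale and the number of members called to 3. Atp8b4 was at 85.0 CPM in cluster 4 and 84.3 CPM in the small cluster 8 of PBS libraries. Its cluster 4 levels were 106, 58.6 and 90.7 CPM in PBS and 163 and 118 CPM in AML libraries.

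Glis3 and Drc7 had their highest means in cluster 2 in both groups, Glis3 at 7.61 CPM in PBS and 24.4 CPM in AML libraries and Drc7 at 23.9 and 50.0 CPM. Myl4 was highest there in AML libraries only, at 60.4 CPM, while in PBS libraries its 15.7 CPM lay under clusters 8 (26.8 CPM on 6 UMIs) and 6 (17.5 CPM). In cluster 2 Glis3 was at 9.14, 7.69 and 6.00 CPM in PBS and 16.5 and 32.3 CPM in AML libraries. Serpina3f had its highest mean in cluster 6 in both groups, at 10.9 CPM in PBS libraries against 1.73 CPM in the next, cluster 0, and at 46.0 CPM in AML replicate 3 against 17.5 CPM in cluster 8. Over all libraries cluster 6 held 177 cells and 47 of its UMIs. There erythroid genes summed to 5544 CPM and B cell genes to 638 CPM, the latter against 20.1 to 112 CPM in the other clusters, and 17.5% of cells had a UMI of Serpina3f against 1.48% of all cells. Exoc3l2 had its highest PBS mean in cluster 5, at 22.3, 83.5 and 15.4 CPM by replicate, a rank that rests on 22 cells of PBS replicate 2, and in PBS replicate 3 cluster 3 was higher at 43.2 CPM. In AML replicate 3 cluster 5 was highest too, at 54.1 CPM on 16 UMIs against 30.8 CPM in the next, cluster 4, and AML replicate 1 had only 12 cells there.

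Dscam stood out in cluster 8, a group of 113 cells in which 8 T and NK cell genes summed to 1071 CPM. Its mean there was 27.5 CPM in PBS libraries against 3.17 CPM in the next, cluster 4, and 184 CPM in AML replicate 3, where the next AML mean was 12.1 CPM in cluster 2. Of the 49 UMIs in cluster 8, 42 came from 52 cells of AML replicate 3 (13.8% of the Dscam UMIs of that library) and 6 from PBS replicate 3 (54.9 CPM), while the 28 cells of PBS replicate 1 held none. In all other cells Dscam was still at 6.22 and 9.61 CPM in AML and 1.54 to 1.77 CPM in PBS libraries. Its fitted AML change without cluster 8 was 2.28.

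In the 5 clusters with at least 20 cells in every library, members above the PBS range numbered 7 in cluster 0 (19.2% of genes), 7 in cluster 1 (11.0%), 6 in cluster 2 (11.9%), 5 in cluster 3 (9.86%) and 3 in cluster 4 (8.78%). Those 3 were Myl4, Atp8b4 and Apba1. The members had been grouped as genes without a lineage role. Of the 8, Apba1 and Atp8b4 had their highest PBS means in cluster 4, where granulocyte-monocyte genes were highest too. Atp8b4 was nearly level between clusters 4 and 8 of PBS libraries. Its AML level in cluster 8 (153 CPM) comes from AML replicate 3 alone, while that in cluster 4 (141 CPM) is the mean of both AML libraries.

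**Figure D4:**
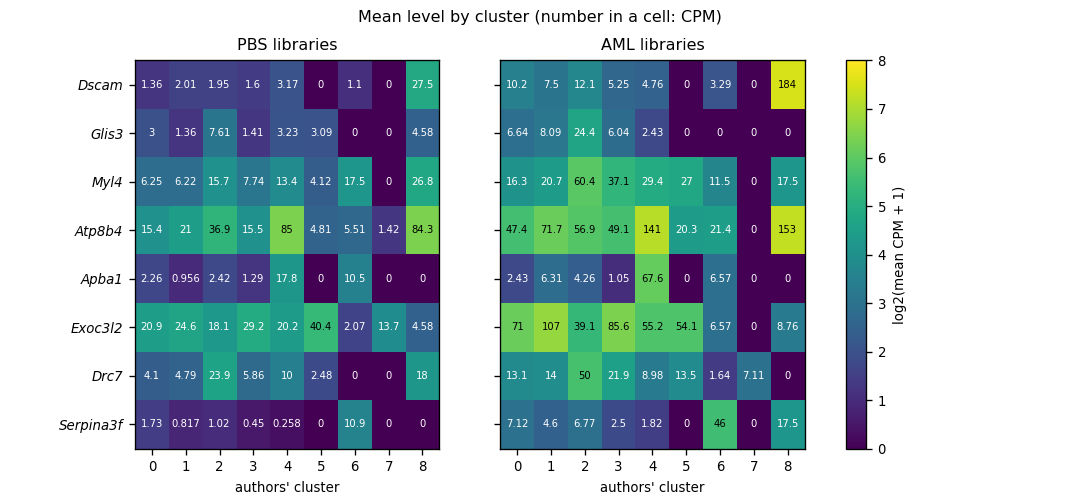
Mean level of each member by the authors' cluster in PBS (left) and AML (right) libraries, as log2(mean CPM + 1) in color with the CPM printed, over libraries with at least 20 cells. AML values in clusters 5 to 8 come from AML replicate 3 alone, and Dscam in cluster 8 and Apba1 in cluster 4 are the brightest entries of their rows.

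The genes most like each member were named by correlation of log2(CPM + 1) over 20 sums (5 libraries by 4 classes) after each library's mean was removed, out of 11350 genes. Since the sums share libraries and depth, r is a description. Atp8b4 was closest to Plac8 (r = 0.966), Tyrobp (0.940) and Ly86 (0.932), and Apba1 to Sec61g (0.930), Ccr2 (0.914) and F13a1 (0.914). Drc7 was nearest to Arpp21 (0.961) and Cd69 (0.948), Dscam to Ets1 (0.926), Glis3 to Gprin3 (0.957), Myl4 to Sec23b (0.975), Exoc3l2 to Tusc2 (0.978) and Serpina3f to Glcci1 (0.915). Among the members themselves the closest pairs were Dscam with Drc7 (0.865) and Myl4 with Drc7 (0.843), and the most opposed was Exoc3l2 with Serpina3f (-0.785). One of these sums is the 23 HSCs of AML replicate 1, with 0 UMIs of Exoc3l2 and Myl4 and 2 of Serpina3f. Without it, an alternative chosen after seeing the data, r was 0.964 for Atp8b4 with Plac8, 0.913 for Apba1 with Sec61g, 0.943 for Drc7 with Arpp21 and 0.944 for Glis3 with Gprin3. It fell further for Dscam with Ets1 (0.843), Myl4 with Sec23b (0.858), Exoc3l2 with Tusc2 (0.889) and Serpina3f with Glcci1 (0.867). Dscam with Drc7 came to 0.761, Myl4 with Drc7 to 0.825 and Exoc3l2 with Serpina3f to -0.600. Some pairs changed sign, such as Exoc3l2 with Myl4, where r went from 0.770 to -0.334.

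Relatives of each member were then read from 8 family lists, with the members left out. Of 77 relatives tested for AML against PBS, edgeR called 0 at an adjusted p under 0.05 (23 of all 14364 genes) and 8 at an unadjusted p under 0.05 (1511 of all genes, a like share), and DESeq2 called 1, Myl10 (83 of all genes). List medians lay between -0.27 and 0.12 on the log2 scale against -0.03 over all genes. Among 11 P4-ATPases and their partners the median was 0.10, and among 12 exocyst genes also 0.10.

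Inside the PBS libraries the relatives are read against the shares of all genes called, which were 28.1% for MPP-4, 35.8% for MPP-3 and 51.6% for MPP-2. Of 10 other P4-ATPase genes tested in MPP-4, where Atp8b4 rose, 1 rose, Atp10a by 0.53, and 2 fell, Atp8b5 by 1.43 and Atp8a1 by 0.58 on the log2 scale. Of 11 genes around the Mint adaptors, 3 passed the test in MPP-3, where Apba1 rose, and all 3 fell, including Aplp2, a homolog of the amyloid precursor protein, which fell by 1.16. App itself fell by 1.79 in MPP-4. Of 8 myosin genes tested in MPP-2, 4 rose, Myl6b by 0.88 among them, and 3 fell, and in MPP-3 Myl10 fell by 0.84 while Myl12a rose by 0.27. Of 10 exocyst genes, 3 passed the test in MPP-3 and fell, and in MPP-4 Tnfaip2, a Sec6 relative, fell by 1.65. Tnfaip2 rose by 0.57 in each of S and G2M.

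By phase, 55.5% of all genes were called in S and 53.2% in G2M. Of 6 other axonemal genes tested, 2 passed the test in S and 1 in G2M, Ccdc40, which fell by 1.26. Both genes tested from the Gli group fell in G2M, as Glis3 did, with Glis2 at -0.97. From the 4 tested relatives of Dscam, 1 passed the test in MPP-3, Robo4, which fell by 2.02. In the serpin list 1 of 6 rose and 3 fell in MPP-4, where Serpina3g fell by 1.54 while Serpinb1a, an inhibitor of neutrophil proteases, rose in each class.

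Serpina3g, a near paralog of Serpina3f, was read at 57.0, 61.5 and 41.6 CPM in PBS and 44.6 and 76.0 CPM in AML libraries. Its fitted AML change was 0.24 (adjusted p = 0.75), and the 2 groups overlapped. Reads of paralogs in this cluster can be hard to assign, so the Serpina3f counts are uncertain to that extent.

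Barcodes outside the authors' table were read apart, in 5 of 6 cases from the same libraries as above. They had a median of 944 UMIs in AML replicate 1 and 320 in AML replicate 2, against 3748.5 in AML replicate 3 and 3194 to 8396.5 in PBS libraries, and the part of this gap in depth in the values was not tested. There all 3 AML libraries lay above all 3 PBS libraries for 7 of 8 members, where 23.4% of genes did, with Exoc3l2 again overlapping. Dscam was at 1.21 to 3.67 CPM in PBS and 10.3, 17.2 and 17.4 CPM in AML replicates 1, 2 and 3. Apba1 was at 0.805 to 2.18 CPM against 5.94, 15.2 and 3.96 CPM. Glis3 held 1.21 to 3.40 CPM against 9.15, 17.9 and 9.76 CPM. AML replicate 2 was above every PBS library for 8 of 8 members, but 52.4% of all genes were too.

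**Figure D5:**
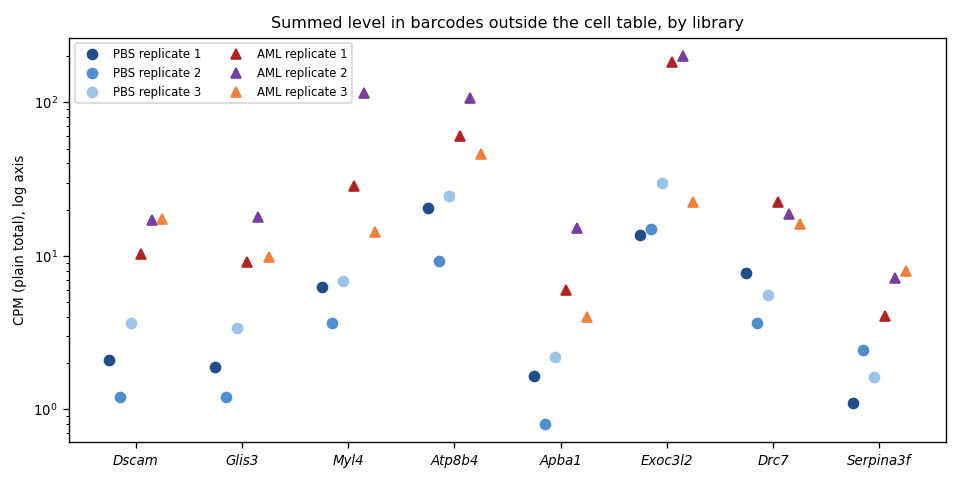
Level of each member in barcodes outside the authors' table, in CPM of the plain total on a log axis, 1 point per library. AML replicate 2 lies above all 3 PBS points for each of the 8 members, and Exoc3l2 in AML replicate 3 lies within the PBS range of 13.6 to 30.0 CPM.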

How the data were processed

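The members and gene lists were chosen with earlier results of these data known. Per the labels and the submitters' processing notes, the authors used Cell Ranger 7.0.1 on GRCm38 (mm10) and Seurat 4.3.0 in R 4.2.2. The deposited matrices hold raw UMI counts per gene and barcode. The deposited table of cells holds detected genes, a percent of mitochondrial UMIs, module scores by the authors, and class, phase and cluster, whose signature genes no source used here gives. Another 12 of its columns were not used.

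UMI counts were summed per library, or per library and class or phase (20 or more cells), and fitted with edgeR 4.0.16 (quasi-likelihood test, TMM, filterByExpr, R 4.3.3), adjusted over all genes tested, at 0.05. AML against PBS had no covariate. Class and phase contrasts used the 3 PBS libraries with library as a block. Clusters, shares and outside barcodes were described without a test. Shares were also taken after thinning cells to 2000 UMIs, which left out 125 cells of PBS replicate 1 and 80 of PBS replicate 3. CPM by class, phase or cluster use plain totals. Doublets were not called anew. Counting error alone lies behind a limit for a count of 0 (3 counts). DESeq2 1.42.0 and limma 3.58.1 (voom) were alternatives. All fits were tested on simulated data first.

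The text names the 8 members, up to 3 relatives per family list with an adjusted p under 0.05 in a class or phase contrast, by size of change, and up to 3 most correlated genes per member. Myl10 under DESeq2, Serpina3g in AML, Atp10a, Myl12a and the phase values of Tnfaip2 were added after their values were seen. Coordinates come from GENCODE vM21 (GRCm38), where 32235 of 32285 genes matched, and promoters from RefSeq (GRCm38.p6), where 8 of 8 members matched. Libraries carrying the same replicate number in both groups did not deviate together, so no pairing was used for AML against PBS.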

Additional observations from a re-analysis of the deposited data

Results flagged for a closer look

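AML replicate 2 has barcodes but no cell in the authors' table, so its signal lies outside the kept cells on which the values by library, class, phase and cluster rest. Its summed level was above every PBS library outside the table for each member: 17.2 CPM for Dscam (PBS 1.21 to 3.67), 17.9 CPM for Glis3 (1.21 to 3.40), 115.7 CPM for Myl4 (3.62 to 6.80), 107.3 CPM for Atp8b4 (9.26 to 24.6), 15.2 CPM for Apba1 (0.805 to 2.18), 201.0 CPM for Exoc3l2 (13.6 to 30.0), 18.6 CPM for Drc7 (3.62 to 7.70) and 7.19 CPM for Serpina3f (1.10 to 2.41). In that library 52.4% of all genes were above the PBS range, and only 106 of its 17055 barcodes passed a filter of 1000 detected genes and 10% mitochondrial UMIs. What sets it apart was not tested.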

How the results depend on the processing

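For AML against PBS over all cells, 6 of 8 members were called. The count was 0 to 4 with 1 library left out, where a lone AML library is assumed to vary like the PBS ones, 1 after thinning to 2000 UMIs, 1 at equal class composition and 3 without cluster 4 (chosen after seeing the data). Every member kept its direction in each of the 17 alternatives run. Over all genes, 23 were called, against 83 by DESeq2, 392 without the filter on low counts, 91 with a replicate block, 75 with an own filter on barcodes of 6 libraries, 12 without cluster 4, 11 at equal class composition, 9 after thinning and 2 to 419 with 1 library left out, the extremes being without PBS replicate 1 and AML replicate 3. Replicate numbers did not pair the libraries (r = -0.09 and -0.10 across genes), and the replicate block gave 7 of 8 members.

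By class, leaving out 1 library gave 0 to 1 members called in the HSC, MPP-2 or MPP-3 class and 0 to 3 in MPP-4, where 2 were called. DESeq2 gave 1 for MPP-2 and 0 for MPP-4, and the replicate block 2 for MPP-2 and 1 for MPP-3. The numbers of all genes called are not set beside these counts, so nothing is read from them. With 1 library left out the change of Myl4 in HSC ranged from -6.70 to 0.74, of Drc7 in MPP-3 from -0.20 to 0.78, of Serpina3f there from -0.44 to 1.90 and of Apba1 in MPP-4 from -6.20 to 1.51, each lowest without AML replicate 3. AML replicate 1 held 0 UMIs of Myl4 in HSC and of Apba1 in MPP-4, so those lowest values depend on the prior count.

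In the class contrasts with 4 members called, leaving out a PBS library gave 3 to 5 for MPP-2 and 2 to 5 for each of MPP-3 and MPP-4. MPP-2 had 2 without the library term (no replicate block) and 0 in G1 cells, and MPP-3 had 2 after thinning. Without the block the genes called fell to 2687, 1707 and 1054, in the order of the classes. Leaving out a library gave 3 to 5 in S and 3 to 7 in G2M. S (4 called) had 2 by DESeq2, 1 by library size only, 1 without a replicate block, 2 after thinning and 1 with a class term. G2M (5 called) had 3, 1, 2 and 3 by DESeq2, without a replicate block, after thinning and with a class term. The shares of all genes called in these S and G2M alternatives are not given here, so nothing is read from the changes in count. Thinning moved the count of members above the PBS range by share from 5 to 8.

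Changes that turned sign were of members not called in the fit reported, except Myl4 and Drc7 in MPP-2. In G1 cells Myl4 (-0.44), Drc7 (-0.74) and Apba1 (-0.22) turned in MPP-2. Apba1 in MPP-2 was also -0.42 without clusters 4, 6, 7 and 8, -0.0023 by library size, -0.39 (without PBS replicate 3) to 0.68 with 1 library left out, and -0.83 at a class score margin of 0.05, and in MPP-4 1.09 in AML libraries. With 1 library left out Exoc3l2 was -0.043 to 0.72 in MPP-2. It was 0.24 over 5 libraries and 1.14 in AML libraries in MPP-3, and in MPP-4 0.047 without PBS replicate 2, 0.14 over 5 libraries, 0.12 after thinning, 0.075 at the margin and 0.80 in AML libraries. Glis3 in MPP-3 was -0.72 to 0.21 with 1 library left out, and Serpina3f there -1.54 without clusters 4, 6, 7 and 8. In S, Dscam was -0.15 over 5 libraries and -0.50 in AML libraries, Exoc3l2 -0.15 to 0.67 with 1 library left out and Drc7 -0.087 after thinning and -0.23 in AML libraries. In G2M, Exoc3l2 was -0.11 to 0.56 with 1 library left out and -0.23 with a class term, and Drc7 -0.014 by library size and -0.00041 to 0.29 with 1 library left out. These causes were not tested. Depth left Dscam untested in the class contrasts and Serpina3f in the phase contrasts.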
